A study of Mus musculus with 30 samples.

Results

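Fatty acid oxidation and ketone body enzymes were followed in newborn mice that lack ERRγ and in wild-type newborns. The group holds 32 genes, chosen by symbol: the carnitine shuttle, the enzymes of mitochondrial and peroxisomal β-oxidation, ketone body enzymes and the carrier Fabp3. All probe sets annotated with these symbols were taken, 55 of the 22626 on the array that are not controls. A probe set that names 1 gene was found for 30 of the 32, among 12393 genes so named in all. Of the 30, 21 act in mitochondria, 8 in peroxisomes, and Fabp3 is a cytosolic carrier. Acsl1 was not analysed here, and Cpt1b is given no value, since its probe set is shared with other genes.

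The study placed total RNA of 5 tissues on Affymetrix MOE430A arrays, which detect labelled RNA with sets of short probes. The groups were ERRγ-null stomach, kidney, liver, salivary tissue and brain, and the same tissues of wild-type mice, with 3 arrays per group and 30 in all. Every mouse was neonatal, on a mixed SV129/C57BL/6 background, of unknown sex, and kept on standard chow; how the null allele was made is not stated in the labels. Whether 3 arrays stand for 3 animals or for pools is not stated, so p-values measure the spread between these arrays, and their number limits the precision.

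ERRγ is a nuclear receptor with no known natural ligand that binds DNA as a single protein or a dimer and works with the PGC-1 coactivators, mostly in heart, muscle and other tissues rich in mitochondria. Mitochondrial β-oxidation shortens acyl-CoA in a cycle of dehydrogenase, hydratase, second dehydrogenase and thiolase, and passes electrons to the respiratory chain through the electron transfer flavoprotein. Peroxisomes begin the breakdown of very long and branched chains. At birth the pup turns to milk fat, and the liver makes ketone bodies from acetyl-CoA for use elsewhere.

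Values are log2 MAS5 signals, so a difference of 1 is a doubling, and levels are set side by side for 1 probe set at a time. The 2% trimmed mean of the linear signals lay between 149.988 and 150.008 on all 30 arrays. The Esrrg probe set did not separate the genotypes, with 6.02 to 6.76 on null and 5.89 to 6.64 on wild-type arrays, so it does not check the labels. Tissue markers were high where the labels place them: the summed linear signal of 11 hepatocyte genes was 65482 to 77861 in null and 70199 to 75355 in wild-type liver, and that of 6 neuronal genes 8915 to 9144 in null and 8949 to 9458 in wild-type brain. Some arrays stood apart. Albumin RNA (Alb) was 6.81, 6.19 and 7.06 on null stomach arrays and 5.93, 10.25 and 11.90 on wild-type arrays 1, 2 and 3. In salivary tissue the brown fat gene Ucp1 was 11.31, 12.75 and 11.02 on null arrays and 5.99, 4.04 and 12.14 on wild-type arrays 1, 2 and 3. The counts of members that passed in null against wild-type stomach and salivary tissue are given with and without these arrays, and the other values of these tissues include them.

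The first comparison asked where the enzymes are found in wild-type newborns. Liver led: 26 of 30 members passed the test as higher in wild-type liver than in the mean of the 4 other wild-type tissues, against 24.1% of all 16828 tested probe sets. In 26 the highest of the 5 means was that of liver, as in 21% of 16690 probe sets; it was kidney's in 2 (16.4%), salivary tissue's in 2 (19.7%), and stomach's or brain's in 0 (12.3% and 30.5%). The median liver difference was 1.52 over the members and -0.16 over all features (log2). The test was limma on the 15 wild-type arrays, with p-values adjusted by Benjamini-Hochberg over all probe sets and called at 0.05. Among mitochondrial enzymes 19 of 21 were higher in liver, and the other 2, Hadha and Acot2, did not pass. The largest such differences were in the thiolase Acaa2 (2.49 ± 0.21 (SE), adjusted p = 4.5e-08) and in Bdh1, the 3-hydroxybutyrate dehydrogenase (2.21 ± 0.14, adjusted p = 2.16e-09).

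The 3 largest liver differences were peroxisomal. Slc27a2, a very long-chain acyl-CoA synthetase and fatty acid transporter, was 12.29, 12.27 and 12.04 in wild-type liver and 9.69, 9.65 and 9.73 in wild-type kidney. It was 1.64 to 7.95 in wild-type stomach, 1.98 to 5.94 in wild-type salivary tissue and 4.83 to 5.33 in wild-type brain. Liver exceeded the mean of the other tissues by 6.23 ± 0.90 (SE, adjusted p = 1.95e-05), and in the tissues with low signals this probe set lay near or under the level of the dimmest 40% of probe sets, so its differences are bounded by background. The thiolase Acaa1b was higher in liver by 5.08 ± 0.19 (adjusted p = 1.1e-11), and the bifunctional enzyme Ehhadh by 4.09 ± 0.24 (adjusted p = 9.13e-10). Pex11a, which takes part in peroxisome division, was the peroxisomal member that did not pass in liver; it was highest in salivary tissue, by 1.06 ± 0.10 over the other tissues (adjusted p = 4.71e-07).

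Brain lay at the other end. There 27 of 30 members were lower than in the mean of the other tissues, against 33% of all probe sets. For 24 members the lowest of the 5 means was that of brain, a count whose share over all probe sets was not taken. Acat1, the acetoacetyl-CoA thiolase that serves both making and using ketone bodies, had a brain difference of -0.68 ± 0.10 (adjusted p = 2.38e-05), and Acaa2 one of -3.15 ± 0.21 (adjusted p = 2.46e-09). Bdh1 did not pass in brain. Fabp3 ran opposite to the enzymes: it was 8.18, 8.33 and 8.28 in wild-type brain and 3.52, 3.28 and 4.14 in wild-type liver, where it was lower by 3.86 ± 0.37 than in the other tissues (adjusted p = 2.25e-07). Its liver level was under the filter level of 5.25 set by the dimmest 40% of probe sets, so background bounds this difference.

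The remaining tissues were more mixed. In wild-type stomach 6 members were higher (20.3% of all probe sets were) and 5 lower (22.4%), led by Ehhadh (1.51 ± 0.24, adjusted p = 0.000125) and Fabp3 (1.23 ± 0.37, adjusted p = 0.0142). The 11 stomach calls came to 6 without wild-type stomach array 1 and to 6 without array 2. In wild-type kidney 6 were higher (24.8%) and 3 lower (17%), led by Slc27a2 (3.09 ± 0.90, adjusted p = 0.012), Fabp3 (2.36 ± 0.37, adjusted p = 0.000113) and Acaa1b (2.22 ± 0.19, adjusted p = 3.39e-07). The kidney calls came to 6 without wild-type kidney array 1. In wild-type salivary tissue 7 were higher (24.8%) and 7 lower (21.9%). Without wild-type array 3, the one that carried Ucp1, 3 were higher and 18 lower. For these fits with 1 array left out no share over all probe sets was taken, so the counts only describe the members.

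**Figure D1:**
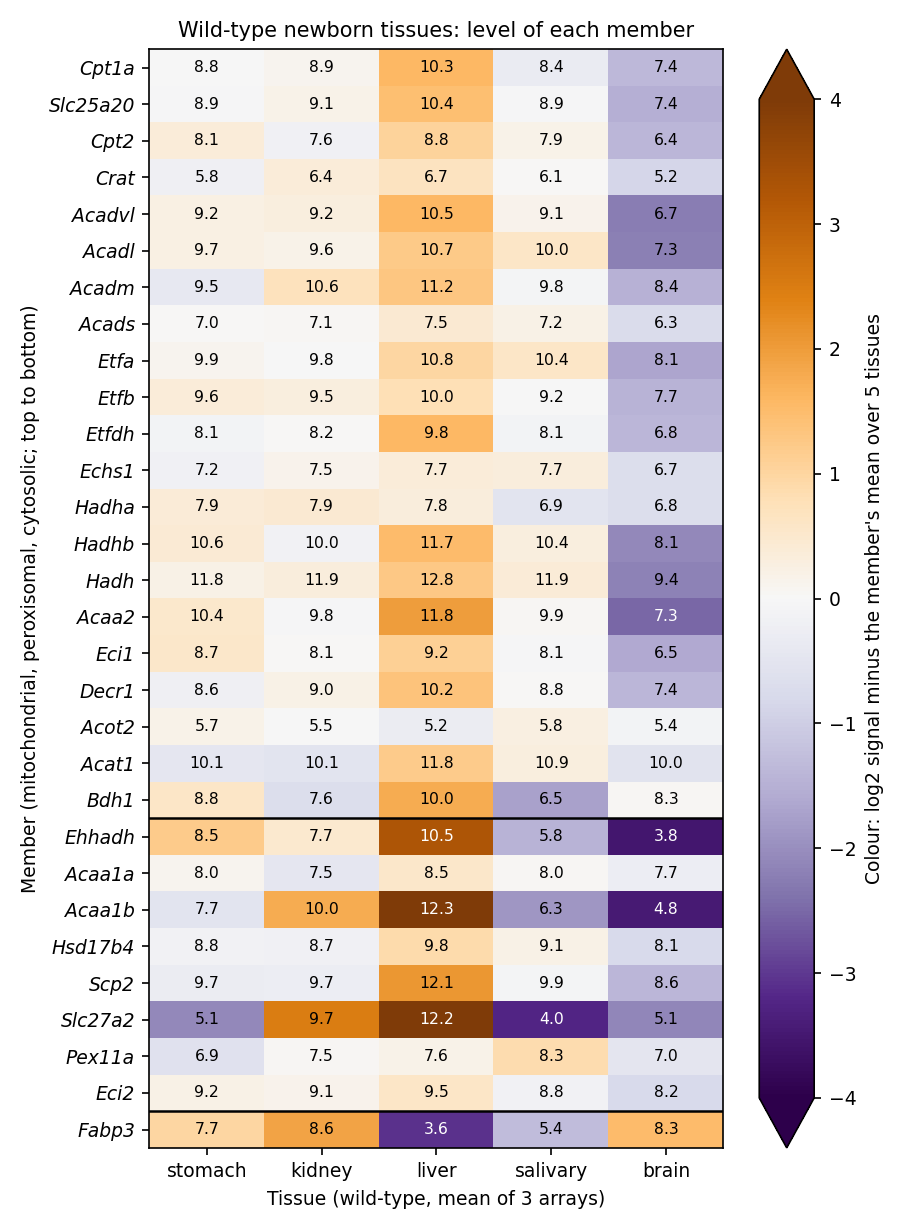
Mean log2 signal of 30 members in 5 wild-type tissues (3 arrays each). Numbers are levels, comparable along a row, and colours give the level minus the member's own mean over tissues, from violet (lower) to brown (higher); lines part mitochondrial, peroxisomal and cytosolic members. Liver holds the highest mean of 26 members (21% of all probe sets) and brain the lowest of 24 (share over all probe sets not taken), while Fabp3 is lowest in liver.

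To see whether promoters shared a receptor site, the 250 bases before each start (RefSeq, GRCm38.p6) were searched on both strands for AAGGTCA, a core element for nuclear receptors of this kind, for TCAAGGTCA, an extended form that contains it, and for a direct repeat of AGGTCA with 1 base of any kind between. Of the 32 genes, 26 had a window. The core was in 2 of the 26, Acadm and Slc27a2, and in 4.08% of all 32851 windows. The extended form was in 0 of the 26 (0.387% of all windows), and the repeat in 0 (0.0335%). These letters are a description of the window and not a measured site. Both windows with a match are printed, with the match in capitals (read as TGACCTT, its reverse complement), and so is the one before Hadhb. Hadhb and Hadha encode the subunits of 1 enzyme, the mitochondrial trifunctional protein, and start 273 bases apart on opposite strands, so this last window lies between their start sites.
Acadm, chr3:153944644-153944893, minus strand: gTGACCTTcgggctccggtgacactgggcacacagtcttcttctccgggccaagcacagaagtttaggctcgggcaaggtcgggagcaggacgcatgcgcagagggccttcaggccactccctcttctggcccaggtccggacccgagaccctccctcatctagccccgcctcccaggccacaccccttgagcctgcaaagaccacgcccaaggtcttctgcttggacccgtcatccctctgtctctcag
Slc27a2, chr2:126552774-126553023, plus strand: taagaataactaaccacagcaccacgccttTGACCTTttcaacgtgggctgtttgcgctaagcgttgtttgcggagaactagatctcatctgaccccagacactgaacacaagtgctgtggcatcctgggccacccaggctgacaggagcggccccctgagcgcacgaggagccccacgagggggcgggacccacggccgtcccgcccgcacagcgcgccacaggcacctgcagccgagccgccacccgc
Hadhb, chr5:30155003-30155252, plus strand: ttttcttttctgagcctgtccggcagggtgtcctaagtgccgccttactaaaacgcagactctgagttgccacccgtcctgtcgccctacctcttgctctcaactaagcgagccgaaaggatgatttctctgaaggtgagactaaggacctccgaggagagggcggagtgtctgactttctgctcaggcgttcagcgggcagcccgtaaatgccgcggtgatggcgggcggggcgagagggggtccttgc
The match begins 249 bases before the Acadm start and 220 before the Slc27a2 start.

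The second comparison set null against wild-type tissue. In null stomach 13 members fell and 2 rose, in null liver 7 fell and 1 rose, in null kidney 2 fell, in null salivary tissue 3 rose, and in null brain 0 passed. Each tissue was tested by limma over its 6 arrays on probe sets whose mean reached the 40th percentile of the tissue, with p-values adjusted over all of them. The difference was below 0 for 23 of 29 members in stomach (47% of all probe sets), 24 of 30 in kidney (48.1%) and 25 of 29 in liver (47.1%). It was below 0 for 2 of 30 in salivary tissue (48.1%) and 8 of 26 in brain (47.9%).

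**Figure D2:**
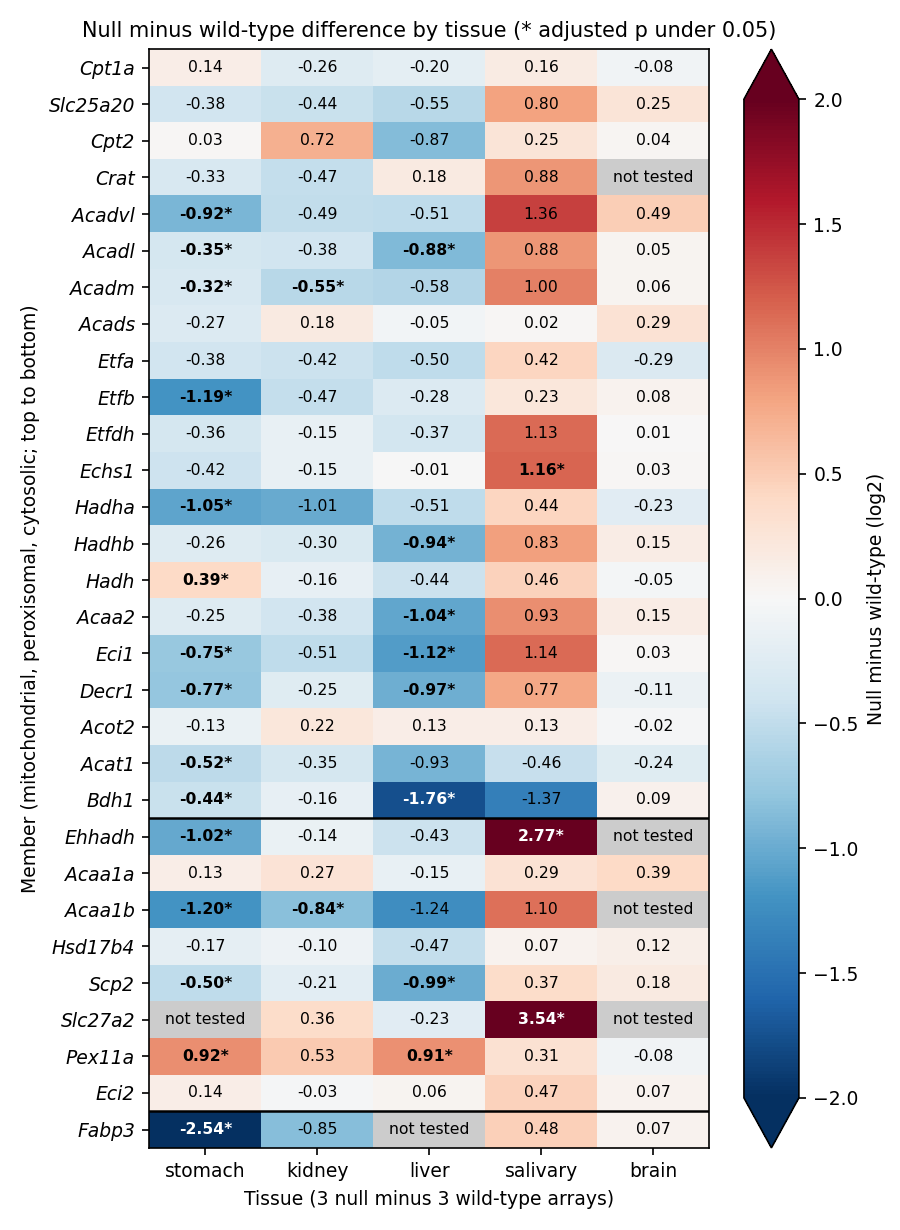
Null minus wild-type difference (log2) of 30 members in 5 tissues, red for higher and blue for lower in null. An asterisk marks an adjusted p under 0.05 and grey a probe set too dim to test. Blue fills most of the stomach, kidney and liver columns (23 of 29, 24 of 30 and 25 of 29 tested members below 0) and red the salivary column (28 of 30 above 0).

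In null liver 8 of 29 tested members passed (6.93% of all probe sets did): 7 fell (3.46%) and 1 rose (3.47%), while 21 did not pass and Fabp3 was too dim to test. Of 21 mitochondrial members 6 fell, at the steps of first dehydrogenase, thiolase, double-bond handling and ketone bodies. The largest difference was in Bdh1, which interconverts acetoacetate and 3-hydroxybutyrate. Bdh1 was 7.57, 8.76 and 8.41 on null liver arrays, against 9.98, 9.89 and 10.15 on wild-type arrays. All null arrays lay below all wild-type arrays, and the difference was -1.76 ± 0.26 (SE, adjusted p = 0.00728), a 3.39-fold lower level. Its other probe set gave -2.11 ± 0.32 (adjusted p = 0.00766). Acat1, the thiolase before it in ketone body metabolism, had a difference of -0.93 ± 0.27 that did not pass (adjusted p = 0.0699). Another of its probe sets passed at -1.06 ± 0.21 (adjusted p = 0.0216).

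Within the β-oxidation cycle, the long-chain acyl-CoA dehydrogenase Acadl was 9.68, 10.04 and 9.73 in null liver, against 10.78, 10.67 and 10.64 in wild-type liver (difference -0.88 ± 0.14, adjusted p = 0.0082). Hadhb, the thiolase subunit of the trifunctional protein, was 10.45, 10.98 and 10.77 in null liver, against 11.76, 11.70 and 11.56 in wild-type liver. Its groups stood clear of each other on this probe set (-0.94 ± 0.15, adjusted p = 0.0082). The other Hadhb probe set gave -0.20 ± 0.20 and did not pass (adjusted p = 0.613). Hadha, the partner of Hadhb across the window printed above, had a difference of -0.51 ± 0.17 (adjusted p = 0.116), and its null arrays also all lay below the wild-type ones. Acaa2, the thiolase for medium chains, was 10.39, 11.23 and 10.80 in null liver, against 11.96, 11.79 and 11.78 in wild-type liver (-1.04 ± 0.19, adjusted p = 0.0154). Both other Acaa2 probe sets passed too, at -1.16 ± 0.15 (adjusted p = 0.00439) and -1.19 ± 0.24 (adjusted p = 0.0227).

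Auxiliary enzymes for unsaturated chains fell as well. Eci1, the enoyl-CoA isomerase that moves double bonds, was 7.41, 8.61 and 8.35 in null liver, against 9.17, 9.40 and 9.16 in wild-type liver (-1.12 ± 0.27, adjusted p = 0.0414). Decr1, the dienoyl-CoA reductase, was 8.67, 9.66 and 9.34 in null liver, against 10.33, 10.12 and 10.13 in wild-type liver (-0.97 ± 0.23, adjusted p = 0.0363). In both genes null array 1 was lowest and null array 2 nearest to wild type. The 4 measured members of the carnitine shuttle did not pass in liver. Cpt1a, whose product admits long chains to mitochondria, had a difference of -0.20 ± 0.21 (adjusted p = 0.637), and the carnitine palmitoyltransferase Cpt2 one of -0.87 ± 0.39 (adjusted p = 0.221). The short-chain dehydrogenase Acads (-0.05 ± 0.25) and the hydratase Echs1 (-0.01 ± 0.17) also did not pass.

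Among 8 peroxisomal members in liver, 1 fell and 1 rose. Scp2, whose gene encodes a peroxisomal thiolase and a sterol carrier, was 10.78, 11.30 and 11.17 in null liver, against 12.23, 12 and 12 in wild-type liver (-0.99 ± 0.15, adjusted p = 0.00674). Pex11a ran the other way: it was 8.70, 8.13 and 8.80 in null liver, against 7.45, 7.80 and 7.66 in wild-type liver (0.91 ± 0.20, adjusted p = 0.0306). Its other probe set gave 0.83 ± 0.27, which did not pass (adjusted p = 0.0992). Acaa1b had the widest peroxisomal difference, -1.24 ± 0.39, with null values of 9.97, 11.98 and 11.17 against wild-type values of 12.34, 12.44 and 12.07, and did not pass (adjusted p = 0.0958). Slc27a2 (-0.23 ± 0.18) and Ehhadh (-0.43 ± 0.28) had overlapping groups.

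**Figure D3:**
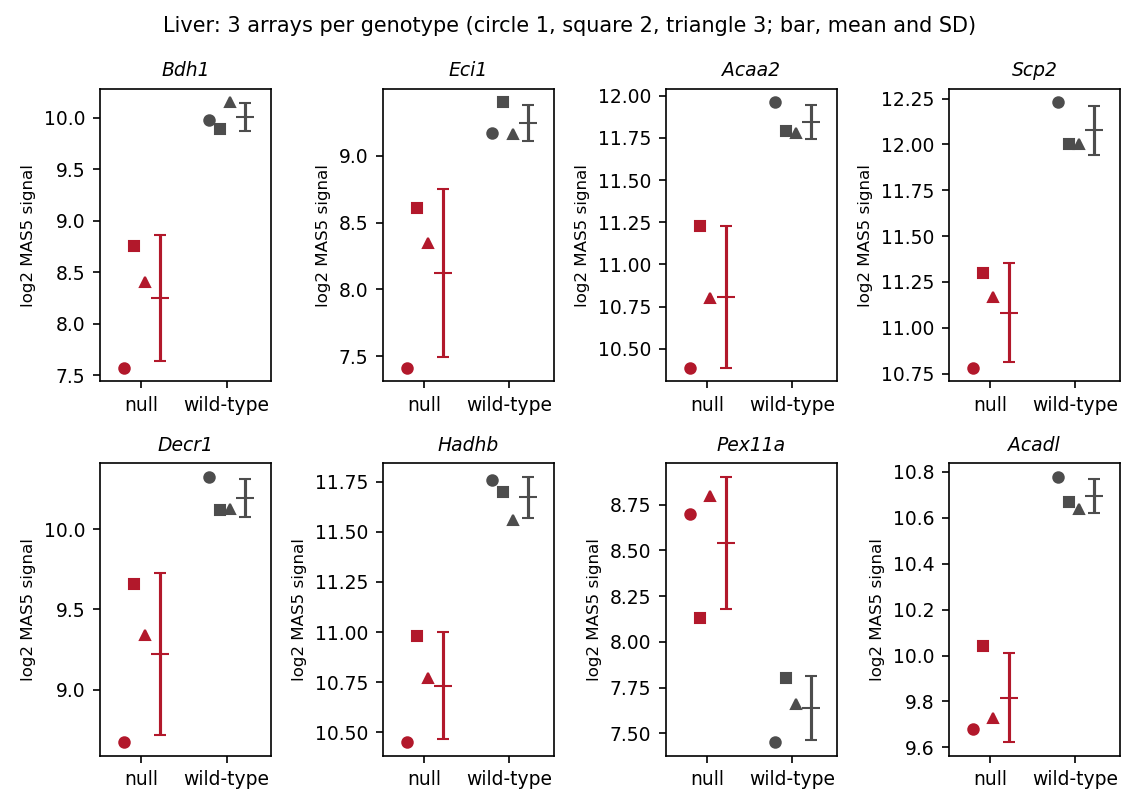
Log2 MAS5 signal of 8 members in null (red, left) and wild-type (grey, right) liver, with 1 point per array and the mean and SD beside it; each panel has its own axis, which does not start at 0. Null and wild-type points do not overlap in any panel. Pex11a is the panel in which null is above.

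Over the 29 members tested in liver the median difference was -0.50, against 0.03 over all features, and the null arrays lay wholly below the wild-type arrays for 12 (12.6% of all probe sets). The median was -0.51 over mitochondrial and -0.33 over peroxisomal members. The liver count moved with single arrays: it was 5 without null array 1 (1.88% of all probe sets passed), 17 without null array 2 (13.3%) and 4 without null array 3 (1.75%). It was also 4 without wild-type array 1 (2.39%), 2 (1.9%) or 3 (1.43%). The gap between the 3' and 5' Gapdh control probe sets, a measure of RNA integrity, was 3.91 to 4.16 on null and 4.25 to 4.81 on wild-type liver arrays. These ranges did not overlap, so the Gapdh gap and genotype cannot be told apart in liver. The same gap for the actin control did overlap, at 2.36, 2.46 and 3.12 on null and 2.56, 2.62 and 2.38 on wild-type liver arrays. It was not used in a model. With the Gapdh gap in the model 0 members and 0 of all probe sets passed, while 26 of 29 differences were below 0. The summed signal of 4 erythroid genes was 4503 to 5019 in null and 3445 to 4040 in wild-type liver, and 1 of them rose; its part in the result was not tested. The 11 hepatocyte genes did not pass in either direction.

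In null stomach 13 of 29 tested members fell (12.2% of all probe sets did), 2 rose (11.2%) and 14 did not pass. The largest fall was in Fabp3, which carries fatty acids in the cytosol of heart, muscle and other oxidative cells. It was 5.10, 5.60 and 4.83 in null stomach, against 7.44, 7.56 and 8.16 in wild-type stomach. The groups lay well apart (-2.54 ± 0.24, adjusted p = 0.000956), and the null mean was under the filter level of 5.35, so background bounds the fold. In bulk tissue, fewer cells of a type and less RNA per cell cannot be told apart. The summed signal of 5 parietal cell genes was 661 to 746 in null and 4777 to 5121 in wild-type stomach, and all 5 fell. That of 10 skeletal muscle genes was 225 to 341 in null and 477 to 569 in wild-type stomach, and 2 fell. That of 8 heart muscle genes was 673 to 857 in null and 780 to 914 in wild-type stomach, and 1 fell. The part of these cell types in the result of Fabp3 and the other members was not tested.

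Of 21 mitochondrial members 9 fell in null stomach and 1 rose. Etfb, the β subunit of the electron transfer flavoprotein, was 8.30, 8.63 and 8.19 in null stomach, against 9.47, 9.64 and 9.59 in wild-type stomach (-1.19 ± 0.13, adjusted p = 0.00142). Acadvl, the very long-chain acyl-CoA dehydrogenase, was 8.12, 8.48 and 8.15 in null stomach, against 9.07, 9.32 and 9.12 in wild-type stomach (-0.92 ± 0.13, adjusted p = 0.00376). In both genes the highest null array lay clear of the lowest wild-type array. Hadha, the trifunctional protein's hydratase and dehydrogenase subunit, was 6.52, 7.09 and 6.80 in null stomach, against 8.23, 7.24 and 8.09 in wild-type stomach (-1.05 ± 0.26, adjusted p = 0.0218). Its closest arrays were null array 2 and wild-type array 2, and Hadhb did not pass (-0.26 ± 0.11, adjusted p = 0.132). Decr1 was 7.62, 8.10 and 7.86 in null stomach, against 8.60, 8.49 and 8.80 in wild-type stomach (-0.77 ± 0.15, adjusted p = 0.00981). The other Decr1 probe set gave -0.06 ± 0.17 and did not pass (adjusted p = 0.815).

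Smaller falls passed for Eci1 (-0.75), Acat1 (-0.52), Bdh1 (-0.44), Acadl (-0.35) and Acadm (-0.32). The mitochondrial member that rose was Hadh, the hydroxyacyl-CoA dehydrogenase for short and medium chains, at 12.18, 12.13 and 12.14 in null stomach, against 11.59, 11.94 and 11.74 in wild-type stomach (0.39 ± 0.10, adjusted p = 0.0209). Its other probe sets did not pass, at 0.77 ± 0.36 (adjusted p = 0.146) and 0.29 ± 0.13 (adjusted p = 0.125). Acaa2 on its brightest probe set did not pass (-0.25 ± 0.11, adjusted p = 0.119), whereas its other probe sets did, at -0.94 ± 0.23 (adjusted p = 0.0203) and -1.35 ± 0.28 (adjusted p = 0.0115).

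Of 7 peroxisomal members tested in stomach, 3 fell and 1 rose. Acaa1b, a thiolase close in sequence to Acaa1a, was 5.90, 7.09 and 6.55 in null stomach, against 7.19, 7.56 and 8.39 in wild-type stomach (-1.20 ± 0.35, adjusted p = 0.038). Ehhadh was 6.73, 8 and 7.63 in null stomach, against 8.28, 8.26 and 8.88 in wild-type stomach (-1.02 ± 0.30, adjusted p = 0.0415). For both, null array 2 came close to the lowest wild-type array. Scp2 fell by 0.50 (SE 0.15, adjusted p = 0.0425), but of its 3 other probe sets 2 gave differences above 0, of 0.50 ± 0.17 and 0.03 ± 0.15, and neither passed. Pex11a rose again, with 7.82, 7.73 and 7.88 in null stomach, against 6.95, 6.72 and 6.99 in wild-type stomach (0.92 ± 0.13, adjusted p = 0.00303), and its other probe set gave a like value (1.06 ± 0.19, adjusted p = 0.00735). Slc27a2 was too dim to test.

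**Figure D4:**
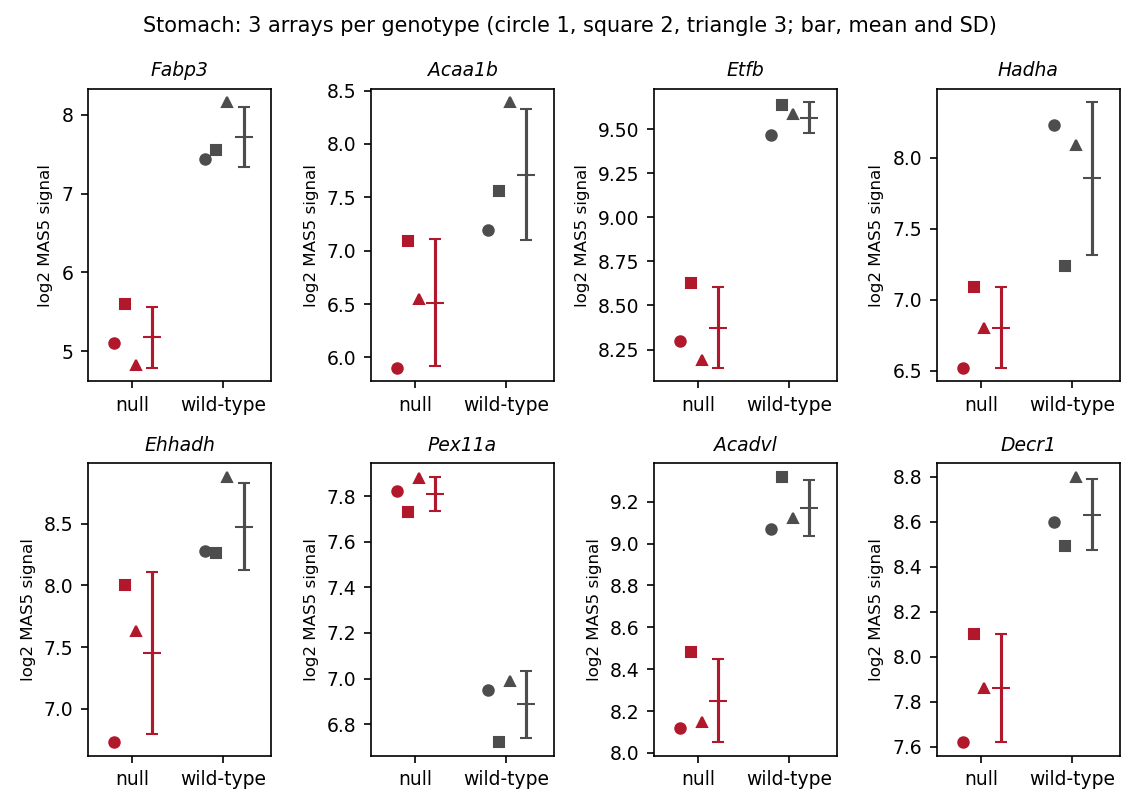
Log2 MAS5 signal of 8 members in null (red, left) and wild-type (grey, right) stomach, with 1 point per array and the mean and SD beside it; each panel has its own axis, which does not start at 0. Null points lie below wild-type points in all panels but that of Pex11a, and Fabp3 shows the widest gap.

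The median stomach difference was -0.36 over members and 0.03 over all features, and the null arrays lay wholly below the wild-type arrays for 19 members (20.4% of all probe sets). Of all probe sets, 23.5% passed in this tissue. The Gapdh gap averaged 3.77 ± 0.22 on null stomach arrays and 2.60 ± 0.45 on wild-type ones (SD, n = 3 each). It was 3.53 to 3.97 on null and 2.28 to 3.11 on wild-type arrays, so gap and genotype cannot be told apart here. The actin gap did not overlap either, at 3.24, 2.36 and 2.39 on null and 1.47, 2.04 and 1.21 on wild-type stomach arrays. With the Gapdh gap as a covariate 0 members and 2 of all probe sets passed, while 20 of 29 differences were below 0 with a median of -0.25. Hadha then had a difference of 0.13. The hepatocyte gene sum was 2126 to 3306 in null and 2685 to 18393 in wild-type stomach, and 2 of 11 hepatocyte genes fell. With Alb as a covariate 4 members passed (3.71% of all probe sets did), and 25 of 29 differences were below 0 with a median of -0.35. Without wild-type arrays 2 and 3, which held the albumin RNA, 0 passed with 1 wild-type array left, and 25 of 29 differences were below 0 with a median of -0.37. The count was 7 without null array 1 (12.3% of all probe sets passed), null array 3 (12.3%) or wild-type array 3 (10.6%). It was 8 without wild-type array 1 (16.2%) or 2 (13.9%), and 17 without null array 2 (26.7%).

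In null kidney 2 of 30 members passed (0.781% of all probe sets did): 2 fell (0.368%) and 0 rose (0.412%). Acadm, the medium-chain acyl-CoA dehydrogenase whose promoter window is printed above, was 10.06, 9.90 and 10.08 in null kidney, against 10.74, 10.53 and 10.43 in wild-type kidney (-0.55 ± 0.11, adjusted p = 0.0497). Acaa1b was 8.83, 9.49 and 9.14 in null kidney, against 9.97, 10.05 and 9.96 in wild-type kidney (-0.84 ± 0.15, adjusted p = 0.04). In both genes the groups were apart, and wild-type values were the tighter ones for Acaa1b. Fabp3, next by p, was 7.78, 7.88 and 7.68 in null kidney, against 9.03, 8.52 and 8.33 in wild-type kidney, and missed the threshold (-0.85 ± 0.17, adjusted p = 0.0568). Hadha had a difference of -1.01 ± 0.23 (adjusted p = 0.0811), and Pex11a one of 0.53 ± 0.13 (adjusted p = 0.106).

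Beyond these, kidney differences leaned one way without passing. The null arrays lay wholly below the wild-type arrays for 16 of 30 members, against 9.81% of all probe sets, and above for 2, Slc27a2 and Pex11a, against 10.1%. Over the 30 the median difference was -0.25, with -0.35 over mitochondrial, -0.06 over peroxisomal members and 0.01 over all features. The Gapdh gap was 2.55 to 2.87 in null and 2.42 to 3.01 in wild-type kidney. The summed signal of 6 proximal tubule genes was 1476 to 2100 in null and 2888 to 2998 in wild-type kidney, and 2 of the 6 fell. That of 5 thick limb and distal tubule genes was 2983 to 3099 in null and 3384 to 4216 in wild-type kidney, and 2 of the 5 fell. The part of these cell types in the result was not tested. The kidney count was 0 without null array 1 (0.206% of all probe sets passed) or 3 (0.192%). It was also 0 without wild-type array 1 (0.0516%), 2 (0.0295%) or 3 (0.118%), and 3 without null array 2 (2.15%).

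In null salivary tissue 3 of 30 members passed (8.22% of all probe sets did): 3 rose (3.5%) and 0 fell (4.72%), while 27 did not pass. Slc27a2 was 7.43, 8.82 and 6.27 in null tissue, against 3.99, 1.98 and 5.94 in wild-type tissue (3.54 ± 0.91, adjusted p = 0.0457), with wild-type values near background. Its wild-type mean of 3.97 was under the filter level of 5.37, so it reached the test through its null arrays. Background bounds this difference, and without the filter it did not pass (adjusted p = 0.0712). Ehhadh was 8.56, 9.51 and 7.71 in null tissue, against 5.45, 5.24 and 6.77 in wild-type tissue (2.77 ± 0.48, adjusted p = 0.0103), a 6.84-fold higher level. Echs1, the short-chain enoyl-CoA hydratase of mitochondria, was 8.42, 9.27 and 8.79 in null tissue, against 7.43, 7.29 and 8.29 in wild-type tissue (1.16 ± 0.29, adjusted p = 0.0408). In all 3 genes wild-type array 3, the one with Ucp1 RNA, was the wild-type array nearest to null.

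All members, passing or not, were also set against wild-type array 3. Of 30 members, 27 were higher on wild-type array 3 than on both other wild-type arrays. No share over all probe sets was taken for this count or for the placement that follows, so both only describe the members. Wild-type array 3 lay within the range of the null arrays for 22, above it for 3 and below it for 5, namely Cpt1a, Echs1, Ehhadh, Acaa1b and Slc27a2. Acadvl is an example, with 10.15, 11.48 and 9.77 in null tissue, against 8.50, 8.36 and 10.45 in wild-type tissue (1.36 ± 0.57, adjusted p = 0.184). Bdh1 ran opposite, with 5.38, 4.24 and 5.82 in null tissue, against 6.89, 6.69 and 5.97 in wild-type tissue, with the null mean near background, and did not pass (-1.37 ± 0.41, adjusted p = 0.0747).

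**Figure D5:**
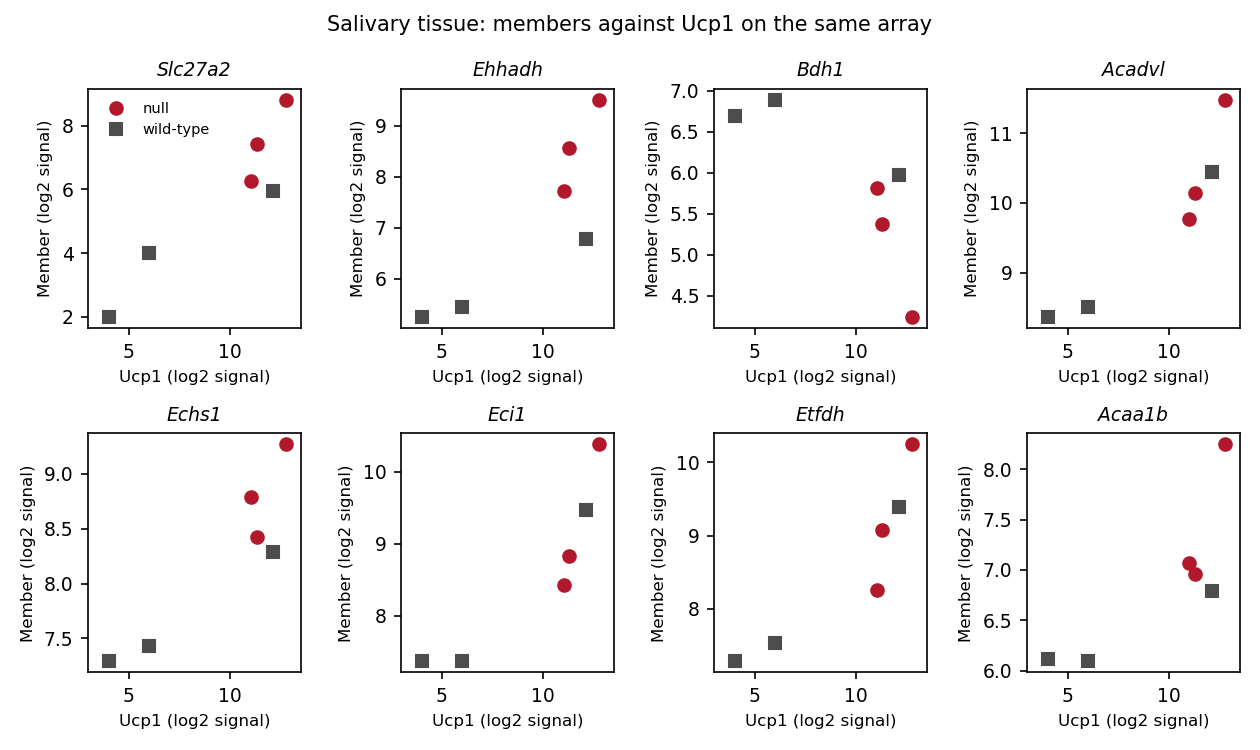
Log2 signal of the 8 members with the largest salivary differences (vertical, 1 axis per panel, not from 0) against Ucp1 on the same array (horizontal), for 3 null (red circles) and 3 wild-type (grey squares) arrays. Wild-type array 3, with Ucp1 at 12.14, lies among the null arrays along the horizontal axis, and wild-type arrays 1 and 2 lie to the left.

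The summed signal of 8 brown fat and adipocyte genes was 4689 to 12933 in null and 580 to 7545 in wild-type salivary tissue, and 1 of the 8 rose. That of 10 skeletal muscle genes was 500 to 1132 in null and 108 to 202 in wild-type tissue, and that of 5 salivary epithelial genes 13073 to 19260 in null and 17828 to 20975 in wild-type tissue. With Ucp1 as a covariate 0 members passed (2.03% of all probe sets did), and the median difference was -0.08 in place of 0.48, with 17 of 30 below 0. Without wild-type arrays 1 and 2, a setting chosen after seeing the data that leaves 1 wild-type array, 0 passed and the median was also -0.08. The count was 8 without wild-type array 3 (5.54% of all probe sets passed) and 0 without wild-type array 2 (2.34%). It was 1 without wild-type array 1 (3.92%), null array 1 (3.76%) or null array 3 (3.93%), and 2 without null array 2 (10%).

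In null brain none of 26 tested members passed, as was so for all 13577 probe sets (0%). At an unadjusted p under 0.05 there were 2 members and 1426 probe sets. The smallest p belonged to Acadvl, at 7.03, 7.13 and 7.43 in null brain, against 6.32, 7 and 6.80 in wild-type brain (0.49 ± 0.19, adjusted p = 0.426). Acat1 followed, at 9.66, 9.82 and 9.90 in null brain, against 10.02, 10.03 and 10.04 in wild-type brain (-0.24 ± 0.10, adjusted p = 0.436). Scp2 was 8.74, 8.75 and 8.89 in null brain, against 8.59, 8.62 and 8.62 in wild-type brain (0.18 ± 0.10, adjusted p = 0.547). The null values lay apart from the wild-type values for these 3 genes, above for Acadvl and Scp2 and below for Acat1. Over all 26, null lay wholly below for 2 (7.53% of all probe sets) and wholly above for 3 (8.14%). The 95% intervals of the brain differences differed in width between members. The lowest bound was that of Etfa (-0.66) and the highest that of Acads (0.96), while Acadm had an interval of -0.18 to 0.30 and Hadh one of -0.27 to 0.18.

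The third comparison asked whether the null effect differed between tissues, by an F test on the genotype by tissue term over 30 arrays. It passed for 15 of 30 members, against 15.3% of 16690 probe sets: 10 of 21 mitochondrial and 5 of 8 peroxisomal members. Ehhadh had the smallest p (adjusted p = 0.000288). Its null mean was 2.77 above wild type in salivary tissue and 1.02 below it in stomach, with differences of -0.43 in liver, -0.14 in kidney and -0.04 in brain. Echs1 (adjusted p = 0.00333) differed by 1.16 in salivary tissue, and by -0.42, -0.15, -0.01 and 0.03 in stomach, kidney, liver and brain. Bdh1 (adjusted p = 0.00546) differed by -1.76 in liver and -1.37 in salivary tissue, and by -0.44, -0.16 and 0.09 in stomach, kidney and brain.

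Acaa1b (adjusted p = 0.00793) averaged 6.51 in null and 7.71 in wild-type stomach, 9.15 and 9.99 in kidney, 11.04 and 12.28 in liver, 7.43 and 6.33 in salivary tissue and 5.07 and 4.76 in brain, null first in each pair. Its null mean was below wild type in stomach, kidney and liver and above it in salivary tissue and brain. Pex11a (adjusted p = 0.00982) was above wild type in null stomach, kidney, liver and salivary tissue, by 0.92, 0.53, 0.91 and 0.31, and below it in brain by 0.08. Acaa2 (adjusted p = 0.0106) was below wild type by 1.04 in null liver, 0.38 in kidney and 0.25 in stomach, and above it by 0.93 in salivary tissue and 0.15 in brain.

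Averaged over the 5 tissues, 5 members passed (22.5% of all probe sets did), 4 lower in null (11.1%) and 1 higher (11.4%). The lower ones were Bdh1 (-0.73 ± 0.13, adjusted p = 0.000138), Acat1 (-0.50 ± 0.09, adjusted p = 0.000125), Hadha (-0.47 ± 0.12, adjusted p = 0.00453) and Etfb (-0.33 ± 0.11, adjusted p = 0.0283). Pex11a was the one higher (0.52 ± 0.07, adjusted p = 9.21e-06). With salivary tissue left out, 15 members were lower (8.76% of all probe sets) and Pex11a alone was higher (9.01%). Those 15 were 12 of 21 mitochondrial members, the peroxisomal Acaa1b and Scp2, and Fabp3. The lower mitochondrial members then included the first dehydrogenases Acadvl (-0.36 ± 0.09, adjusted p = 0.00765), Acadl (-0.39 ± 0.06, adjusted p = 0.000128) and Acadm (-0.35 ± 0.08, adjusted p = 0.00395), and both subunits of the flavoprotein, Etfa (-0.40 ± 0.07, adjusted p = 0.000946) and Etfb (-0.47 ± 0.08, adjusted p = 0.000394). The 4 measured shuttle genes Cpt1a, Slc25a20, Cpt2 and Crat did not pass on either average.

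The probe sets that were not the brightest of their gene mostly had the same sign. In liver 16 of 20 did, and all 9 of those whose gene was called did. In stomach 14 of 20 did, with both exceptions among called genes being probe sets of Scp2. In kidney it was 14 of 17, in salivary tissue 16 of 18, and in brain, where differences were small, 4 of 12. By call, 5 of the 20 other probe sets passed in stomach (23.5% of all probe sets did) and 8 of 20 in liver (6.93%). It was 0 of 17 in kidney (0.781%), 0 of 18 in salivary tissue (8.22%) and 0 of 12 in brain (0%). Hadh in liver passed only on a dimmer probe set (-1.34 ± 0.27, adjusted p = 0.0222), while its brightest did not (-0.44 ± 0.18, adjusted p = 0.177).

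Other genes of the pathway were taken from lists by role. The first list held 24 other mitochondrial and ketone body genes, of which 21 had a probe set naming 1 gene. Of 18 tested in null stomach 3 fell (12.2% of all probe sets did) and 1 rose (11.2%), and of 19 in kidney 1 fell (0.368%). Of 20 tested in liver 2 fell (3.46%), of 18 in salivary tissue 1 rose (3.5%), and of 17 in brain 0 passed (0%). In stomach, Oxct1, the enzyme that lets peripheral tissue use acetoacetate, fell (-0.33 ± 0.10, adjusted p = 0.0439), as did Hsd17b10 (-0.52) and the propionyl-CoA carboxylase subunit Pcca (-0.94), while Acsm3 rose (1.13). In liver the medium-chain acyl-CoA synthetase Acsm1 (-1.69 ± 0.33, adjusted p = 0.0201) and Pcca (-0.97) fell. In kidney the acetyl-CoA synthetase Acss1 fell (-0.75 ± 0.11, adjusted p = 0.0218), and in salivary tissue the branched-chain dehydrogenase Acadsb rose (0.70 ± 0.14, adjusted p = 0.0198).

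The second list held 23 other peroxisomal genes, of which 18 had a probe set naming 1 gene. Of 12 tested in null stomach 4 fell (12.2% of all probe sets did), and of 15 in liver 3 fell (3.46%). Of 12 in salivary tissue 1 rose (3.5%), and 0 passed of 15 in kidney (0.781%) and of 11 in brain (0%). Those in liver were the carnitine octanoyltransferase Crot (-1.88 ± 0.48, adjusted p = 0.0475), the CoA-cleaving Nudt7 (-1.27 ± 0.26, adjusted p = 0.0219) and the trans-enoyl-CoA reductase Pecr (-1.11 ± 0.25, adjusted p = 0.0312). In stomach they were Acad11 (-0.97), Nudt19 (-0.57), Acot8 (-0.52) and Phyh (-0.49), and in salivary tissue Hacl1 (1.42), which cleaves branched chains. The median over the other peroxisomal genes tested was -0.55 in liver, -0.37 in stomach and 0.00 in kidney.

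The third list held 26 genes of uptake, binding, activation and control, of which 23 had a probe set naming 1 gene. Among these 23, Pdk4, the kinase that turns off pyruvate dehydrogenase when fat is burned, rose in 3 tissues. It averaged 9.60 ± 0.42 on null stomach arrays and 7.14 ± 0.28 on wild-type ones (SD, n = 3 each; difference 2.45 ± 0.22 (SE), adjusted p = 0.000771). In liver it averaged 9.20 ± 0.28 in null and 6.90 ± 0.32 in wild type (2.29 ± 0.21, adjusted p = 0.00133), and in salivary tissue 10.91 ± 0.23 in null and 6.97 ± 1.75 in wild type (3.94 ± 0.68, adjusted p = 0.00953). In null liver the fatty acid sensing receptor Ppara (0.71 ± 0.18, adjusted p = 0.0426) and the lipase inhibitor Angptl4 (1.07 ± 0.27, adjusted p = 0.0433) rose, and the liver fatty acid binding protein Fabp1 fell (-1.74 ± 0.35, adjusted p = 0.0227). In null stomach Acot1 (0.46) and Fabp5 (0.27) rose and Acsl5 (-0.56) fell. In all, 3 rose and 1 fell of 19 tested in stomach (11.2% and 12.2% of all probe sets). In liver 3 rose and 1 fell of 18 (3.47% and 3.46%), and in salivary tissue 1 rose of 18 (3.5%). Of 15 tested each in kidney and brain 0 passed (0.781% and 0% of all probe sets).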

How the data were processed

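Labelled RNA from 5 newborn tissues was measured on 30 arrays. The authors deposited log2 values made with MAS5, per the submitters' processing notes; neither its version nor its scaling target is stated there. Of 22690 probe sets 64 controls were left out. Symbols came from the array's annotation table, with 20380 probe sets naming 1 gene, 691 several and 1555 none; a gene was read from its brightest probe set naming 1 gene. Members, lists and tests were chosen with earlier results of these data known. Differences were tested with limma 3.58.1 in R 4.3.3 (lmFit, eBayes with trend) on the deposited values, per tissue over 6 arrays, over all 30 for the average and the genotype by tissue term, and over 15 wild-type arrays between tissues. Per tissue, probe sets with a mean under the 40th percentile were left out. P-values were adjusted by Benjamini-Hochberg over all tested probe sets and called at 0.05. Errors of differences are SE, and no level was set against another probe set's.

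Named members were, per tissue, up to 8 with the largest differences among those passing, or the 3 smallest p where fewer passed, and the 6 smallest p of the F test; examples that did not pass and probe sets that differed in call were added after their values were seen. In each tissue 200 probe sets were changed on simulated arrays. Of 2-fold changes, 71% were recovered for stomach, 60% for kidney, 44% for liver, 43% for salivary tissue and 71.2% for brain. Recovery depends on how many probe sets change, so these shares do not give the power of the real tests, in brain or elsewhere. Alternatives were a floor of 5, other filters and normalizations, gene means, all arrays in 1 fit, no trend, a replicate block, covariates (Gapdh gap, Alb, Ucp1) and leaving out arrays or tissues. No pair of arrays was identical. Array numbers did not pair null with wild-type samples: deviations of null and wild-type arrays of 1 number correlated between -0.24 and 0.14. Between tissues of 1 genotype, arrays of the same number had a median correlation of 0.05 (10 of 60 over 0.1), against -0.03 for other numbers (1 of 120). The labels do not say whether arrays of 1 number share an animal. The reported fits across tissues took all arrays as independent. Promoter windows are from RefSeq (GRCm38.p6).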

Additional observations from a re-analysis of the deposited data

Results flagged for a closer look

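The null effect differed between the 5 tissues for 15 members by the F test of the genotype by tissue term (limma, 30 arrays, adjusted over 16690 probe sets). The adjusted p was 0.000288 for Ehhadh, 0.00333 for Echs1, 0.00546 for Bdh1, 0.00793 for Acaa1b, 0.00982 for Pex11a and 0.0106 for Acaa2. For Acadl, Acadvl, Scp2, Decr1 and Hadha it was 0.0142, 0.0159, 0.0177, 0.0215 and 0.0249. For Etfb, Hadhb, Slc27a2 and Eci1 it was 0.0257, 0.0329, 0.0373 and 0.0471. In 11 of the 30 members the test passed with salivary tissue left out, in 8 without stomach and in 8 without liver. No share over all probe sets was taken for these refits, so the counts only describe the members.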

How the results depend on the processing

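Counts of members passing moved by more than 1.5 times under these settings. The share of all probe sets that passed moved too and is given in brackets where it was taken. In stomach the 15 became 5 with all 30 arrays in the fit (16.8%), 9 with no trend (21.6%), 4 with Alb as a covariate (3.71%) and 0 with the Gapdh gap (0.0147%). In kidney the 2 became 0 with no filter (0.115%), all 30 arrays (0.336%), no trend (0.147%), the Gapdh gap (0.302%) or Ucp1 (0.744%), and 1 with Alb (1.38%). In liver the 8 became 5 with no filter (2.33%) or no trend (3.93%), 3 with Ucp1 (1.3%) and 0 with the Gapdh gap (0%). In salivary tissue the 3 became 10 with all 30 arrays (13.9%) and 5 with the Gapdh gap (6.45%). They became 1 with no filter (3.59%), no trend (5.63%), Alb (5.94%) or the replicate block (3.79%), and 0 with Ucp1 (2.03%). The average gave 16 without salivary tissue (8.76% of all probe sets lower and 9.01% higher) and 3 without kidney, in place of 5. The F test gave 8 without stomach or liver, in place of 15. For the average without kidney and for these F tests no share over all probe sets was taken. The cause of these moves was not tested. Leaving out 1 array at a time gave 7 to 17 members in stomach, 0 to 3 in kidney and 4 to 17 in liver. It gave 0 to 8 in salivary tissue and 0 in brain. Between wild-type tissues it gave 6 to 10 for stomach, 6 to 8 for kidney and 26 to 27 for liver. For wild-type salivary tissue it gave 14 to 21 and for wild-type brain 26 to 27. No share over all probe sets was taken for these wild-type ranges. Where leaving out arrays left 1 in a group, it was taken to vary like the others. The sign turned for Hadha in stomach with the Gapdh gap (0.13) and for Scp2 in brain with the mean of its probe sets (-0.12). In stomach and liver the Gapdh gap did not overlap between genotypes, so its fits there cannot tell this gap from genotype. Of the other values of named members under these settings, 320 kept sign and call, 133 kept the sign but no longer passed and 4 came to pass. With the replicate number as a block, 12 passed in stomach (18.2% of all probe sets), 3 in kidney (0.781%), 10 in liver (6.21%), 1 in salivary tissue (3.79%) and 0 in brain (0%). The replicate numbers do not pair null with wild-type samples. Dim probe sets limit folds: Fabp3 in null stomach and in wild-type liver, Bdh1 in null salivary tissue and Slc27a2 in wild-type salivary tissue had means under the filter level.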
